A study of Mus musculus with 17 samples.

Results

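Transcripts of 10 regulators of mitochondrial biogenesis were compared between hearts of hMut and Ctrl mice: the PGC-1 coactivators *Ppargc1a* and *Ppargc1b*, the receptors *Ppara*, *Ppard* and *Rxra*, the estrogen-related receptors (ERR) *Esrra*, *Esrrb* and *Esrrg*, and the nuclear respiratory factors *Nrf1* and *Gabpa*. They were taken by gene name from a table of read counts for 56748 genes, in which each name matched 1 gene. All 10 passed the filter on low counts, which left 16195 genes to test. The data were bulk poly(A) RNA-seq of heart tissue from untreated mice of 12 to 16 months, with 1 library per heart, 8 from Ctrl and 9 from hMut mice. hMut mice were homozygous for the inducible *Polg* iMut allele and carried Ckmm-cre (*Polg* iMut/iMut; +/Ckmm-cre), and the line was kept on C57BL/6N. In this allele a floxed copy of normal *Polg* and a stop cassette lie before a mutated exon, and cre removes both, so that proofreading-deficient POLG, the mtDNA polymerase, is made. The Ckmm promoter drives cre in heart and skeletal muscle, so other cells of the heart keep normal POLG. The sources used here give the other group only as control, and do not state which of these alleles the controls of the RNA-seq carried. The study asked with this model how mtDNA mutations that build up in cardiomyocytes change the heart.

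PGC-1 proteins bind no DNA themselves. They dock on transcription factors and recruit the machinery that starts transcription, and their level in muscle follows exercise, cold, fasting and cAMP or calcium signals. PPARs, which pair with RXR, turn on fatty acid uptake and oxidation, the main fuel pathway of the adult heart. ERRs turn on the citric acid cycle and oxidative phosphorylation (OXPHOS), and NRF1 and GABP bind promoters of OXPHOS subunits and of factors that copy and transcribe mtDNA.

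In hMut hearts *Ppargc1a* transcripts fell and *Ppard* transcripts rose, each by a small step, and the other 8 regulators did not pass the test. *Ppargc1a* was 18.2% lower in mean level and *Ppard* 12.0% higher. By the quasi-likelihood test of edgeR, adjusted by Benjamini and Hochberg's method at a threshold of 0.05, 4.62% of all genes tested were called, 3.48% higher and 1.14% lower in hMut, so 2 calls among 10 members stand beside that background. DESeq2 called the same number of members, 2, and 10.2% of all genes it tested. Groups of hearts that did not overlap at all were found for 0.605% of genes tested and for 0 of the 10 members. Of the members 8 had a negative and 2 a positive log2 fold change, and their median was −0.11, beside 0.002 over all genes tested.

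Total counts per library lay between 32915159 and 46486964, and the members' counts lay between 364 for *Nrf1* and 7763 for *Esrra*. *Polg* itself lay between 27.1 and 47.2 CPM (counts scaled to a common library size) in Ctrl and between 47.0 and 65.1 in hMut hearts, above all Ctrl hearts in 8 of 9 (log2 fold change 0.74, adjusted p = 0.000448 by edgeR's quasi-likelihood test), and these counts do not separate normal from mutated transcripts. hMut hearts 6 and 9, named by their library numbers, stood apart from the other 7 in their cardiomyocyte markers, with a mean log2 level of −0.50 and −0.53 relative to Ctrl against −0.21 to 0.03. Their nuclear OXPHOS transcripts stood at −0.60 and −0.51 against −0.15 to 0.13. By their *Xist* and Y-linked counts 5 Ctrl and 7 hMut hearts were read as male. Counts on mtDNA-encoded genes were 23.5% to 30.9% of all counts in Ctrl and 15.9% to 23.0% in hMut hearts. In whole-heart RNA, fewer cells of a type and less RNA per cell cannot be told apart.

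Short stretches of promoter are shown for the regulators whose 250 bases before the annotated start held a motif of this network, since PGC-1α and GABP are themselves under the control of such elements. The sequences come from GRCm39, the build of the counts, at the start of the canonical GENCODE transcript, and run 5′ to 3′ on the strand of the gene, with the motif in capitals. The cAMP response element, TGACGTCA, through which CREB acts, was present in *Ppargc1a*, 76 bases before the start (chr5:51711329-51711358, minus strand).
Ppargc1a: ctgccttggagTGACGTCAggagtttgtgc
The GABP site, CCGGAAG, which other ETS factors also bind, was present at 2 places in *Gabpa*, both on the opposite strand and so read as its reverse complement, 7 and 179 bases before the start (chr16:84631902-84631931 and chr16:84631735-84631764, plus strand).
Gabpa, near: gaagtggagggtaagtgCTTCCGGgtccct
Gabpa, far: gccaccgttctaCTTCCGGccctggctccg

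Both strands of 21770 promoters of protein-coding genes were searched for each motif. TGACGTCA was in 1.69% of them and CCGGAAG in 6.89%. The ERR element TCAAGGTCA was in 0.432% and its shorter core AAGGTCA, which lies within it, in 3.93%, and neither was in the window of any of the 10 members. The NRF1 site GCGCATGCG was in 1.73% and in 0 members. A match gives only the letters present, and the windows hold 1 start per gene. *Ppargc1a* and *Gabpa* also have models that begin upstream of the starts used here. The *Ppargc1a* match and the near *Gabpa* match lie within the span of the counted gene, and the far *Gabpa* match before it.

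*Ppargc1a* (ENSMUSG00000029167, chr5:51611592-51725068, minus strand) encodes PGC-1α, the coactivator for which the network is named. Its level was 90.1 CPM in the lowest Ctrl heart, 94.6 at the median and 109 in the highest, and 69.9, 76.2 and 95.2 in hMut hearts. In hMut, 8 of 9 hearts lay below every Ctrl heart, and hMut 2, at 95.2 CPM, lay within the Ctrl range, so the groups overlapped through that heart alone. The mean was 96.9 ± 6.56 CPM in Ctrl (SD, n = 8) and 79.3 ± 7.87 in hMut (SD, n = 9). The log2 fold change was −0.29 with an SE of 0.058 and an adjusted p of 0.00812 by edgeR's quasi-likelihood test (Benjamini-Hochberg), and it was −0.25 without hMut hearts 6 and 9 (adjusted p = 0.0209). The call was kept whichever of the 17 libraries was left out, with adjusted p between 0.000704 and 0.0211. It was lost when libraries were scaled on cardiomyocyte markers (−0.06, adjusted p = 0.394), a scaling that moves the median of all genes up by 0.237, and in the 12 hearts read as male alone (−0.30, adjusted p = 0.0812).

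*Ppargc1b* (ENSMUSG00000033871, on chromosome 18) encodes PGC-1β, the close relative that acts on much the same targets. Its level was 23.3, 25.9 and 31.4 CPM in the lowest, median and highest Ctrl heart and 16.0, 22.6 and 32.3 CPM in hMut. The hMut hearts spread to both sides of the Ctrl range, 6 below it and hMut 2 above it, and their coefficient of variation was 24.0% against 11.4% in Ctrl. The log2 fold change was −0.21 with a 95% interval from −0.45 to 0.03, and the adjusted p of 0.280 in edgeR's quasi-likelihood test did not pass. Per kilobase of gene model, *Ppargc1a* stood at 1.99 to 2.43 times the level of *Ppargc1b* in Ctrl and at 1.53 to 2.97 times in hMut hearts.

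**Figure D1:**
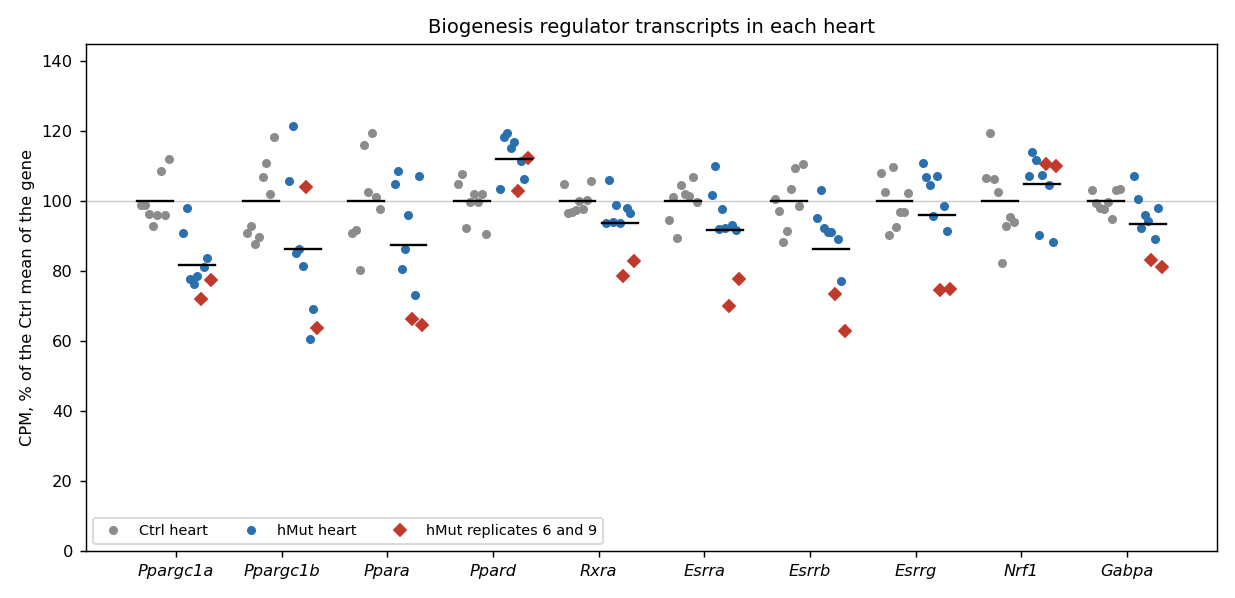
Level of each regulator in each heart (CPM as a percentage of the gene's Ctrl mean; grey circles, 8 Ctrl hearts; blue circles, 7 hMut hearts; red diamonds, hMut hearts 6 and 9; black bars, group means). For *Ppargc1a*, 8 of 9 hMut hearts lie below all Ctrl hearts, and for *Ppard* 6 of 9 lie above them. For *Ppara*, *Rxra*, *Esrra*, *Esrrb*, *Esrrg* and *Gabpa* the red diamonds lie below the other hMut hearts.

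Among the regulators compared, which include the PPARs *Ppara* and *Ppard* but not *Pparg*, only *Ppard* was called higher. *Pparg*, listed below with related receptors, was also called higher (log2 fold change 0.33, adjusted p = 0.0489 in edgeR's quasi-likelihood test). *Ppard* (ENSMUSG00000002250, chr17:28451674-28520448, plus strand) encodes PPARδ, which is active in most tissues and shares many fatty acid oxidation targets with PPARα. Its level was 26.4, 29.3 and 31.3 CPM in the lowest, median and highest Ctrl heart and 29.9, 32.7 and 34.7 CPM in hMut. Of the hMut hearts 6 of 9 were above all Ctrl hearts, and the lowest 3, hMut 1, 6 and 8, lay inside the Ctrl range. The mean rose from 29.0 ± 1.69 CPM (SD, n = 8) to 32.5 ± 1.83 (SD, n = 9), a log2 fold change of 0.16 with an SE of 0.045 and an adjusted p of 0.0444 in edgeR's quasi-likelihood test. This call lies close to the threshold: it was kept without Ctrl 2, hMut 1, hMut 2, hMut 6 or hMut 8, and lost when any 1 of the other 12 libraries was left out (0.14 to 0.18 over the 17, adjusted p 0.0274 to 0.0883). It was also lost with upper-quartile scaling, with no filter on low counts, with sex as a covariate and in the hearts read as male, with log2 fold changes between 0.15 and 0.18.

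*Ppara* (ENSMUSG00000022383, chr15:85619184-85687020, plus strand) encodes PPARα, the main PPAR of heart fatty acid oxidation. Its level was 32.0, 39.7 and 47.7 CPM in the lowest, median and highest Ctrl heart and 25.8, 34.5 and 43.3 CPM in hMut. Only hMut 6, 7 and 9 were below the Ctrl range, and hMut 1, 2 and 8 were above its median. Its log2 fold change was −0.19 (95% interval −0.41 to 0.03) with an adjusted p of 0.276 in edgeR's quasi-likelihood test. Per kilobase, *Ppard* stood at 0.310 to 0.436 of the *Ppara* level in Ctrl hearts (median 0.373) and at 0.367 to 0.646 in hMut hearts (median 0.495), so the ranges overlapped, and *Ppara* remained the higher transcript of the pair in every heart.

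*Rxra* (ENSMUSG00000015846, chr2:27566452-27652969, plus strand) encodes RXRα, the partner with which PPARs bind DNA. Its level was 85.2, 87.2 and 93.1 CPM in the lowest, median and highest Ctrl heart and 69.3, 82.9 and 93.5 CPM in hMut. In hMut, 6 of 9 hearts were below all Ctrl hearts, 4 of them at 82.7 to 85.1 CPM, while hMut 6 and 9 stood at 69.3 and 73.1 CPM. The log2 fold change was −0.09 (95% interval −0.19 to 0.004) with an adjusted p of 0.235 in edgeR's quasi-likelihood test.

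**Figure D2:**
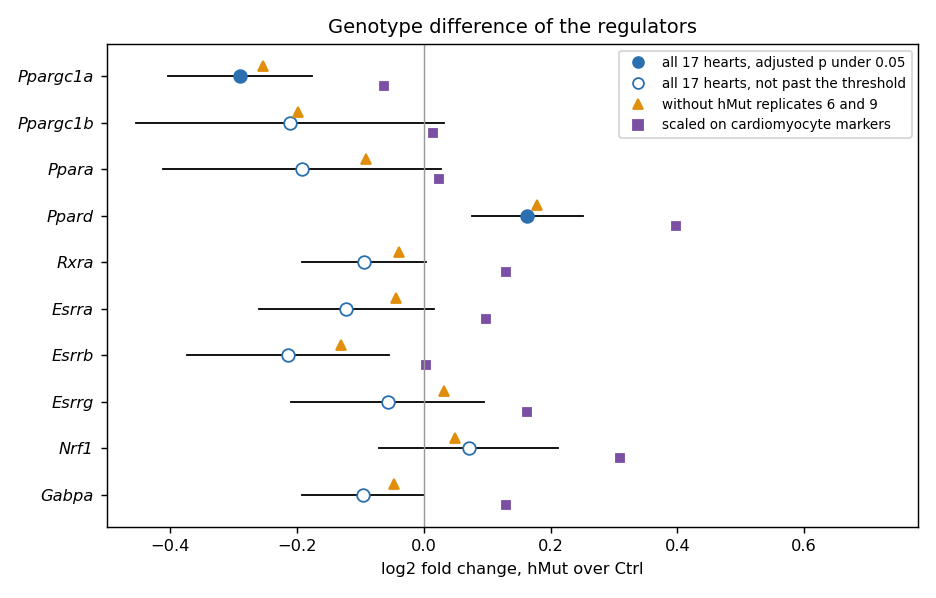
Log2 fold change of each regulator, hMut over Ctrl (circles with 95% intervals, all 17 hearts, filled where the adjusted p is under 0.05). Orange triangles leave out hMut hearts 6 and 9, and purple squares scale libraries on cardiomyocyte markers, which moves the median of all genes up by 0.237. *Ppargc1a* at −0.29 and *Ppard* at 0.16 carry the filled circles, and the squares lie to the right of every circle.

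The ERR transcripts did not pass the test. *Esrra* (ENSMUSG00000024955, chr19:6888345-6899208, minus strand) encodes ERRα, the ERR most tied to PGC-1α. It stood at 162, 183 and 193 CPM in the lowest, median and highest Ctrl heart and at 127, 167 and 199 CPM in hMut. hMut 6 and 9 were below all Ctrl hearts, at 127 and 141 CPM, hMut 2 was above them, and the other 6 lay inside the Ctrl range. This gave a log2 fold change of −0.12 (95% interval −0.26 to 0.02) with an adjusted p of 0.273 in edgeR's quasi-likelihood test.

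*Esrrb* (ENSMUSG00000021255, chr12:86407891-86568402, plus strand) encodes ERRβ, better known from stem cells, placenta and the inner ear. Its level was 42.1, 47.5 and 52.8 CPM in the lowest, median and highest Ctrl heart and 30.05, 43.5 and 49.2 CPM in hMut. hMut 6, 8 and 9 were below the Ctrl range and 5 of the other hMut hearts were below the Ctrl median. Of the 8 regulators that were not called it came nearest, with a log2 fold change of −0.21, a 95% interval from −0.37 to −0.06 before adjustment and an adjusted p of 0.119 in edgeR's quasi-likelihood test. Without hMut 2 it passed (−0.25, adjusted p = 0.0487), in a fit that called 11.1% of all genes.

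*Esrrg* (ENSMUSG00000026610, chr1:187340988-187947082, plus strand) encodes ERRγ, which is abundant in oxidative muscle and is needed for the switch to oxidative metabolism in the heart after birth. Its level was 53.0, 58.6 and 64.4 CPM in the lowest, median and highest Ctrl heart and 43.8, 58.0 and 65.1 CPM in hMut. hMut 6 and 9 were alone below the Ctrl range, at 43.8 and 44.0 CPM, and the other 7 spanned 53.8 to 65.1 CPM. Its log2 fold change was −0.06 (95% interval −0.21 to 0.10) with an adjusted p of 0.657 in edgeR's quasi-likelihood test, and its sign turned without hMut 6 and 9 (0.03).

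The 3 ERR transcripts stood in much the same proportions to each other in both groups. *Esrra* made up 68.1% to 72.1% of their sum per kilobase in Ctrl and 68.6% to 72.6% in hMut. *Esrrg* followed with 14.9% to 18.0% and 16.0% to 18.4%, and *Esrrb* with 11.9% to 14.7% and 11.3% to 13.9%. The ranges of the groups overlapped for each receptor. hMut 9, a heart with low ERR levels, had the highest *Esrra* share, 72.6%, and the lowest *Esrrb* share, 11.3%.

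*Nrf1* (ENSMUSG00000058440, chr6:30047987-30153457, plus strand) encodes nuclear respiratory factor 1. Its level was 9.81, 11.8 and 14.3 CPM in the lowest, median and highest Ctrl heart and 10.5, 12.8 and 13.6 CPM in hMut. Every hMut heart lay inside the Ctrl range, hMut 6 and 9 included, and the log2 fold change was 0.07 (95% interval −0.07 to 0.21) with an adjusted p of 0.544 in edgeR's quasi-likelihood test.

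*Gabpa* (ENSMUSG00000008976, chr16:84631813-84660667, plus strand) encodes GABPα, the DNA-binding subunit of GABP. Its level was 65.4, 68.7 and 71.4 CPM in the lowest, median and highest Ctrl heart and 56.0, 65.1 and 74.0 CPM in hMut. In hMut, 5 of 9 hearts were below the Ctrl range, with hMut 6 and 9 lowest at 57.3 and 56.0 CPM, and hMut 1 was above it. This gave a log2 fold change of −0.10 (95% interval −0.19 to 0.0001) with an adjusted p of 0.220 in edgeR's quasi-likelihood test. *Gabpa* overlaps *Atp5j*, an ATP synthase subunit gene on the opposite strand, by 701 bases, and *Atp5j* had a mean of 16700 counts against 2506. Whether reads were counted by strand is not given in the sources used here, so part of the *Gabpa* count may belong to *Atp5j* (log2 fold change −0.20, adjusted p = 0.182 in the same edgeR test). *Esrra* overlaps *Trmt112* in the same way by 73 bases, at 498 against 6502 counts.

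**Figure D3:**
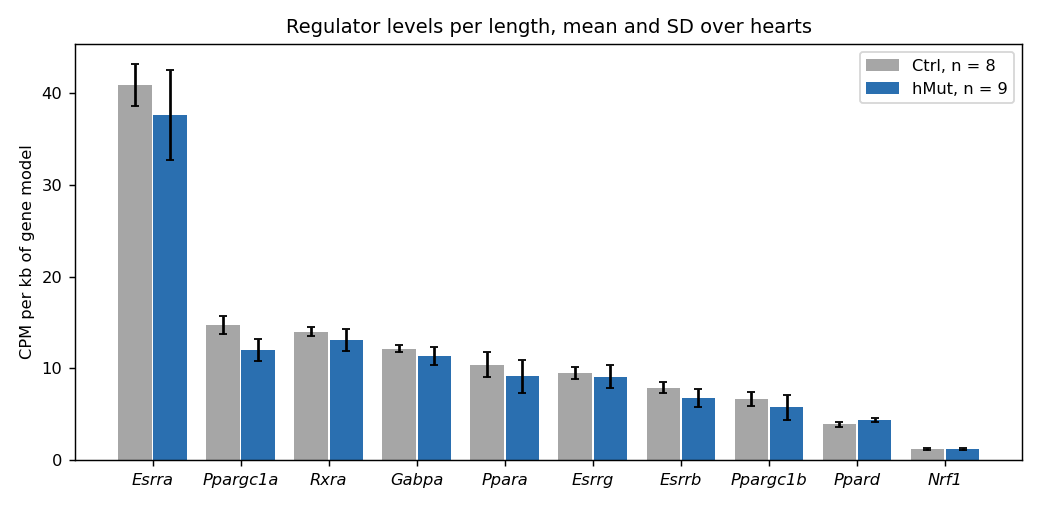
Mean level of each regulator per kilobase of gene model in 8 Ctrl hearts (grey) and 9 hMut hearts (blue), with SD as error bars. *Esrra* is the tallest at 40.9 CPM per kb in Ctrl and *Nrf1* the shortest at 1.16.

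Per kilobase of gene model, *Esrra* was the most abundant of the 10 transcripts in Ctrl hearts, at 40.9 CPM per kb, and *Nrf1* the least, at 1.16. *Ppargc1a* at 14.7 and *Rxra* at 13.98 came next, and their Ctrl ranges overlapped. *Gabpa* (12.1), *Ppara* (10.4), *Esrrg* (9.46), *Esrrb* (7.88) and *Ppargc1b* (6.65) followed, each overlapping its neighbour. *Ppard*, at 3.86, lay apart below them, and *Nrf1* apart again.

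The regulators did not deviate evenly over the mutant hearts. hMut 9 had 8 of the 10 below every Ctrl heart and hMut 6 had 7, with *Esrra*, *Esrrg* and *Esrrb* among them in both. hMut 3, 5, 7 and 8 had 4 each, and hMut 1 and 4 had 2. hMut 2 had 0 below and 4 above every Ctrl heart, namely *Ppargc1b*, *Ppard*, *Rxra* and *Esrra*. *Ppargc1a* was the member below the Ctrl range in all hMut hearts but hMut 2. The coefficient of variation over hearts was larger in hMut than in Ctrl for 8 of 10 members, the exceptions being *Ppard* and *Nrf1*. Among the 45 pairs of members, the correlation of log2 levels around the group means over 17 hearts, given as a description, was highest for *Rxra* with *Esrra* (0.82, and 0.38 without hMut 6 and 9) and lowest for *Ppara* with *Nrf1* (−0.34, and −0.27). Without hMut 6 and 9 the highest was *Ppargc1b* with *Esrrb* (0.78) and the lowest *Ppargc1a* with *Ppard* (−0.33). It was above 0.5 in 21 pairs, and in 10 pairs over the 15 hearts without hMut 6 and 9. The hearts share their libraries across all pairs.

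**Figure D4:**
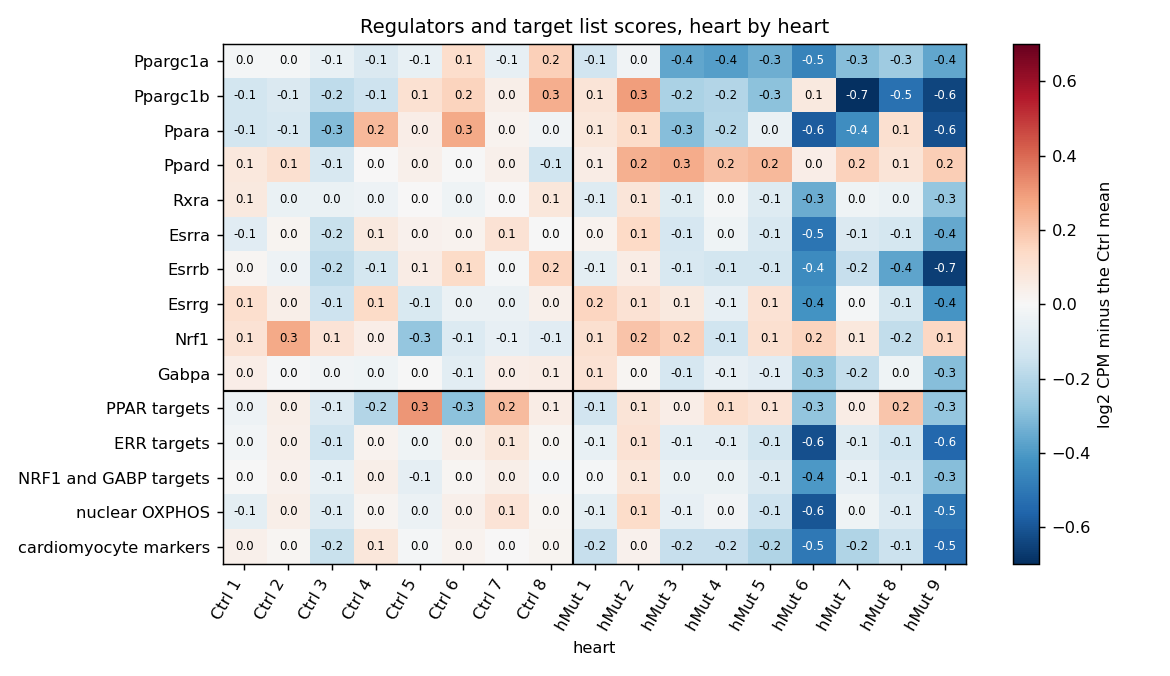
Log2 level minus the Ctrl mean for the 10 regulators (upper rows) and mean of the same over the genes of 5 lists (lower rows) in each heart (columns; colour scale from −0.7 to 0.7, blue lower and red higher). hMut 6 and 9 are the darkest blue columns, and the *Ppargc1a* row is blue in hMut 3 to 9.

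The targets of these factors were read from lists given by count and median, with no test of the list. Of all genes tested, 25.8% had an unadjusted p under 0.05 in edgeR and limma-voom called 12.8%, and the counts below stand beside those shares and the 4.62% and 10.2% called by edgeR and DESeq2. The lists overlap: 18 of the ERR targets and 10 of the NRF1 and GABP targets are also among the OXPHOS subunits, so their counts are not separate. Of 37 ERR targets, 36 had a negative log2 fold change, where 49.5% of all genes tested did. In edgeR's test 0 passed, 12 had an unadjusted p under 0.05, DESeq2 called 2 and limma-voom 5. The share at unadjusted p lay above that of all genes, that of limma-voom slightly above, and the others below. Their median was −0.16, and −0.06 without hMut 6 and 9. The lowest adjusted p was 0.0910, for *Got2*, the mitochondrial aspartate aminotransferase (log2 fold change −0.16), followed by *Ogdh*, a citric acid cycle enzyme subunit (−0.23), and *Slc25a4*, the ADP/ATP carrier (−0.25). Of 76 nuclear-encoded OXPHOS subunits, 75 had a negative value, with a median of −0.15, and −0.05 without hMut 6 and 9. By edgeR 0 passed and 13 had an unadjusted p under 0.05, while DESeq2 called 0 and limma-voom 3, all below the shares of all genes. *Ndufs1* and *Ndufb5* of complex I (−0.27 and −0.15) and *Uqcrh* of complex III (−0.19) had the lowest adjusted p of these, 0.125 to 0.145. Of 30 NRF1 and GABP targets, which include *Nrf1* itself and share *Cycs* and *Sdhb* with the ERR list, 28 were negative, with a median of −0.09, led by *Alas1* (−0.27), *Cox17* (−0.30) and *Uqcrh*. None was called by edgeR (0, with 5 at an unadjusted p under 0.05) or DESeq2 (0), and 2 by limma-voom, again below those shares. A heart's values for these lists were lowest in hMut 6 and 9, and scaling on cardiomyocyte markers turned the medians of the ERR, OXPHOS and NRF1 and GABP lists to 0.05, 0.07 and 0.13, below the 0.239 of all genes.

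Among these target lists, the PPAR list held the largest log2 fold change. Of its 35 tested genes (36 listed), 26 were negative and the median was −0.18, and −0.08 without hMut 6 and 9. The 2 that passed in edgeR were both higher, and 12 had an unadjusted p under 0.05. DESeq2 called 2 higher and 1 lower, and limma-voom 2 higher and 6 lower. The DESeq2 share lay below that of all genes, and the shares by edgeR, unadjusted p and limma-voom lay above. *Fgf21*, a hormone induced by PPARα in fasted liver and by mitochondrial stress in muscle, was near the limit of detection in Ctrl hearts and rose from 0.047 ± 0.046 CPM (SD, n = 8) to 1.83 ± 1.40 (SD, n = 9), above all Ctrl hearts in 9 of 9 (adjusted p = 9.73e-05 by edgeR's quasi-likelihood test). *Ctsl*, a lysosomal protease, rose by 0.46 on the log2 scale (adjusted p = 0.00539 in the same edgeR test), above all Ctrl hearts in 8 of 9. Neither is an enzyme of fatty acid oxidation. *Lpl*, which frees fatty acids for uptake, came next, at −0.39 with an adjusted p of 0.0624. Without hMut 2, where 11.1% of all genes were called, the PPAR list had 5 genes past the threshold, the ERR list 4, the OXPHOS list 2 and the NRF1 and GABP list 1.

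Of 30 further coregulators and upstream regulators of PGC-1, 0 passed in edgeR, with 9 at an unadjusted p under 0.05. DESeq2 called 2 of them and limma-voom 4. The share at unadjusted p lay above that of all genes, that of limma-voom slightly above, and the others below. Without hMut 2 edgeR called 5. Of these genes 19 were negative and the median was −0.04. *Mef2c*, a muscle transcription factor that binds the *Ppargc1a* gene, stood at −0.19 (adjusted p = 0.0689), *Pprc1*, the remaining PGC-1 family member, at 0.27 (0.0702), and *Mapk14*, the p38α kinase that phosphorylates PGC-1α, at −0.18 (0.0907), all by the same edgeR test. Of 20 related receptors and NRF-family factors, 3 passed in edgeR, above the 4.62% of all genes tested. *Nr1d1* and *Nr1d2*, the REV-ERB repressors of the clock, fell by 0.37 and 0.64 on the log2 scale (adjusted p = 0.0340 and 0.0442), and *Pparg*, the PPAR best known from fat cells, rose by 0.33 (adjusted p = 0.0489). These calls rested on many single hearts: 0 were left without Ctrl 5, Ctrl 6, Ctrl 7, hMut 5, hMut 7 or hMut 9, and also with no filter on low counts and without hMut 6 and 9 together, and 1 was left with sex as a covariate. The time of day at which hearts were taken is not given in the sources used here.

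The cell type markers moved as follows, and their part in the members' values was not tested. Of 15 cardiomyocyte markers 14 were negative, with a median of −0.24, and −0.15 without hMut 6 and 9, led by *Myh6* (−0.34), *Tnni3* (−0.43) and *Pln* (−0.35), and their summed level was 63894 to 77474 CPM in Ctrl and 47280 to 75715 in hMut. In edgeR 0 of these 15 passed, beside 4.62% of all genes, and 10 had an unadjusted p under 0.05, beside 25.8%. DESeq2 called 6 and limma-voom 8, beside 10.2% and 12.8% of all genes. All but the count of edgeR calls lay above the share of all genes. The lists that follow stand beside the same shares. Myeloid markers had a median of 0.52, and 0.06 without hMut 6 and 9, and 0 of 12 called by edgeR (7 at an unadjusted p under 0.05, 1 called by DESeq2 and by limma-voom), with a summed level of 255 to 381 CPM in Ctrl and 320 to 1275 in hMut, led by *Cd14*, *C1qa* and *Csf1r*. Lymphoid markers summed to 3.09 to 46.5 CPM and 5.35 to 90.9, with 0 of 11 tested called by edgeR, DESeq2 or limma-voom (4 at an unadjusted p under 0.05), *Cd3e*, *Nkg7* and *Cd8a* leading. hMut 6 had the highest myeloid and lymphoid scores, 1.78 and 3.15 on the log2 scale. *Kdr* (0.39) of 10 endothelial, *Pdgfrb* (0.24) of 8 smooth muscle and pericyte and *Bmp10* (5.58) of 6 tested atrial markers were higher at adjusted p under 0.05. *Pecam1* (0.14), *Cdh5* (0.15), *Tagln* (0.62), *Nppa* (1.16) and *Dkk3* (1.04) came next in those lists and did not pass. *Abcc9*, also next among the smooth muscle and pericyte markers, was lower (−0.27) and did not pass. The endothelial, smooth muscle and pericyte, and atrial medians were 0.11, 0.20 and 0.71. Of their genes 3, 5 and 3 had an unadjusted p under 0.05 in edgeR. DESeq2 called 1, 2 and 1, and limma-voom 4, 3 and 1. Without hMut 6 and 9, edgeR called 0, 0 and 1. Of 10 fibroblast and 3 tested adipocyte markers 0 passed in edgeR (7 and 0 at an unadjusted p under 0.05), DESeq2 and limma-voom each called 2 and 0, with *Postn* (1.36, adjusted p = 0.0512), *Tcf21* and *Col3a1* leading the former and *Car3*, *Cidea* and *Fabp4* making up the latter. All 8 marker lists had transcripts above 0 in both groups.

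Whether hearts with more of a regulator had more nuclear OXPHOS transcripts was asked within each group, with the mean log2 level of the 76 subunits as the score and exact permutation of the pairings. Since hMut 6 and 9 form a cluster of their own, no coefficient is given over all hMut hearts. Over the other 7 hMut hearts and the 8 Ctrl hearts, 0 of 20 relations passed after Benjamini-Hochberg adjustment, and 3 had an unadjusted p under 0.05. In hMut, *Rxra* had r = 0.92 (exact permutation p = 0.0113, adjusted 0.113) and rho = 0.89 (p = 0.0123, adjusted 0.246), and *Esrra* r = 0.82 (p = 0.0375, adjusted 0.250) and rho = 0.64 (p = 0.139, adjusted 0.927). Without the 2 hearts farthest from the median score, hMut 2 and 5, the r values fell to 0.57 and 0.23. Leaving out the ends of the score range can lower r for a true relation too. The fall therefore cannot show whether these relations rested on those hearts. In Ctrl, *Rxra* had r = −0.14 (exact permutation p = 0.736, adjusted 0.891) and rho = −0.12 (p = 0.793, adjusted 1). *Esrra* had r = 0.85 (exact permutation p = 0.00523, adjusted 0.105) and rho = 0.71 (p = 0.0576, adjusted 0.576), and r = 0.55 without Ctrl 1 and 3. Where the adjustment included the hMut relations with hMut 6 and 9, this r in Ctrl passed (adjusted exact permutation p = 0.0261). *Ppargc1a*, the regulator that fell, had r = 0.65 in these 7 hMut hearts (p = 0.121, adjusted 0.530, exact permutation) with rho = 0.07 (p = 0.906, adjusted 1), and r = 0.15 in Ctrl (p = 0.719, adjusted 0.891, exact permutation) with rho = −0.05 (p = 0.935, adjusted 1). Leaving out hMut 2 and 5 turned its coefficient to −0.53, and leaving out Ctrl 1 and 3 gave −0.04.

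**Figure D5:**
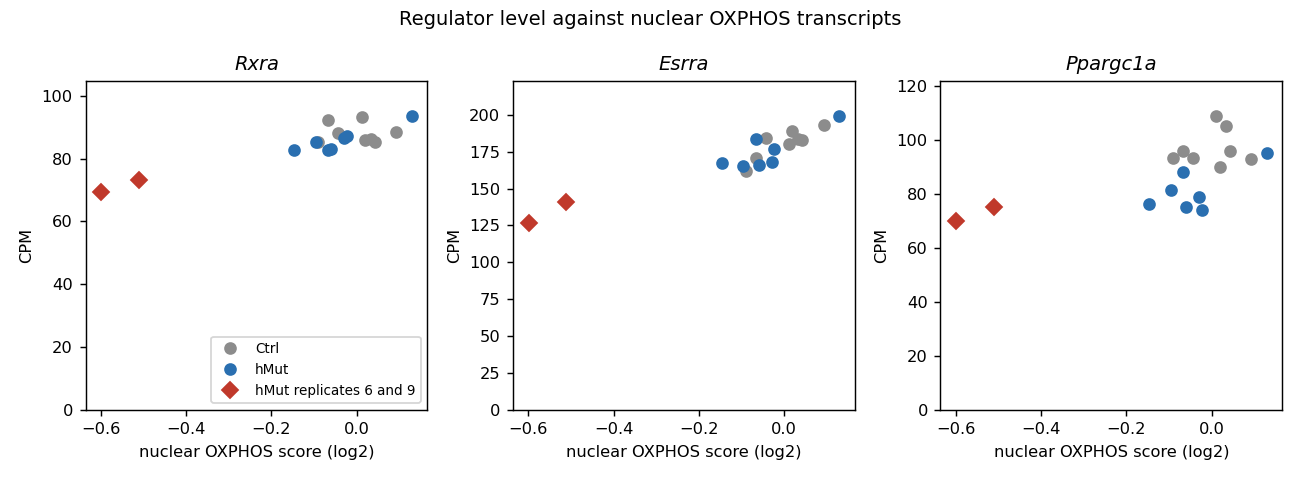
Level of *Rxra*, *Esrra* and *Ppargc1a* (CPM) against the mean log2 level of 76 nuclear OXPHOS subunits relative to Ctrl, each point a heart (grey, Ctrl; blue, hMut; red diamonds, hMut 6 and 9). The diamonds lie at scores of −0.60 and −0.51, away from the other hearts, and for *Ppargc1a* 6 of the 7 blue points lie below all grey ones.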

How the data were processed

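Hearts were grouped by the genotype in the labels. Poly(A) RNA was sequenced by the authors, who used fastp for trimming, HISAT2 2.2.1 for alignment to GRCm39 and featureCounts 2.0.6 for counting, and deposited the counts without normalization. The annotation release and strand setting are not given in the sources used here. Counts were tested with edgeR 4.0.16 (R 4.3.3, glmQLFit and glmQLFTest, TMM, filterByExpr), with genotype as the only term and two-sided p-values adjusted over all genes tested at a threshold of 0.05. CPM used TMM-scaled library sizes, and log2 CPM a prior count of 2. A standard error is the size of the log2 fold change over the square root of F. Intervals cover 95%. The counts' depth, over 32915159 per library, puts every member far above a floor of 3 counts.

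The text names all 10 members, *Polg*, the 3 genes of each of 14 lists with the smallest adjusted p, and the 3 protein-coding genes most like each of *Ppargc1a*, *Ppara*, *Esrra* and *Esrrg*. The members and lists were chosen with earlier results of these data known. The same replicate number in both groups marks different mice: deviations from the group means correlated between −0.225 and 0.339 over 8 number pairs, so they were not paired. The sex of each heart came from *Xist* and Y-linked genes. Alternatives were DESeq2 1.42.0, RLE and upper-quartile scaling, TMM without mtDNA-encoded genes, scaling on cardiomyocyte markers, other filters, sex as a covariate, the replicate block, limma 3.58.1 (voom with quality weights), libraries left out, and for correlations another prior count and the list median. An analysis of hearts read as male was added after seeing the data. Correlations used scipy 1.17.1 and pandas 2.3.3 in Python 3.11.15, with numpy 2.4.6, and plots matplotlib 3.10.9.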

Additional observations from a re-analysis of the deposited data

Results flagged for a closer look

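The cardiomyocyte marker score of Ctrl 3 was −0.153 on the log2 scale relative to the Ctrl mean, and its gap to the nearest other Ctrl heart was 0.599 of the range of the 8 hearts, above Dixon's limit of 0.526. It was the only value past the limit among 34 groups of hearts examined (each regulator, the 6 regulator and target lists and the cardiomyocyte markers, in Ctrl and in hMut), where chance marks about 1 group in 20. In the same heart *Ppargc1b* (23.3 CPM), *Ppara* (32.0 CPM), *Esrra* (162 CPM), *Esrrb* (42.1 CPM) and *Esrrg* (53.0 CPM) had their lowest Ctrl values. Without Ctrl 3, *Ppargc1a* kept its call (−0.30, adjusted p = 0.0131 in edgeR's test) and *Ppard* lost it (0.15, adjusted p = 0.0704).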

How the results depend on the processing

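*Ppargc1a* kept its direction under every alternative and its call under all but 3. The replicate block, a fit with the replicate number as a term over hearts 1 to 8 of each group, gave −0.28 (adjusted p = 0.0548) for *Ppargc1a* and 0.16 (0.139) for *Ppard*, with 0 members and 185 genes called, and only 1 of 8 numbers correlated best with its own number. Scaling on cardiomyocyte markers gave *Ppargc1a* −0.063, turned *Ppargc1b* to 0.015, *Ppara* to 0.024, *Rxra* to 0.13, *Esrra* to 0.10, *Esrrb* to 0.0044, *Esrrg* to 0.16 and *Gabpa* to 0.13, brought *Nrf1* past the threshold at 0.31 (adjusted p = 0.0272), and called 5 members and 6841 genes. This scaling moved the median of all genes up by 0.237. Taking that shift off again gave *Ppargc1a* −0.30 and *Ppard* 0.16. This step undoes the scaling and so returns values near the main fit, which is no separate result. *Esrrg* also turned with limma-voom (0.013) and without hMut 6 and 9 (0.032). *Ppard* lost its call with upper-quartile scaling (0.15), no low-count filter (0.16), sex as a covariate (0.16) and male hearts alone (0.18), where *Ppargc1a* stood at −0.30, so members called were 1, 1, 1 and 0. Genes called were 1524 with DESeq2, 463 with no filter, 2081 with limma-voom, 431 without hMut 6 and 9 and 139 in male hearts. With 1 library left out they ranged from 395 to 1792, and stayed within 1.5 times the count only without Ctrl 3, Ctrl 4, hMut 3, hMut 4 or hMut 8. Members called then ranged from 1 to 3, *Ppard* from 0.14 to 0.18 and *Esrrb* from −0.25 to −0.17. Correlations with the OXPHOS score past the threshold numbered 7 over all hearts by r (1 by rho), 3 to 7 with 1 heart left out, and 0 without hMut 6 and 9. Of the 7 by r, 6 were in hMut and the other was *Esrra* in Ctrl. Its adjusted p by exact permutation was 0.0261 over all hearts and 0.105 without hMut 6 and 9. Its Ctrl values were the same in both, and only the other p-values in the adjustment differed. Other causes of these shifts were not tested. At this number of hearts the 95% intervals of the members reached 0.088 to 0.242 to either side on the log2 scale, before adjustment. A step whose interval leaves out 0 could still go uncalled after adjustment. *Esrrb* was such a case (interval −0.37 to −0.06, adjusted p = 0.119 in edgeR's test).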

Other observations

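The protein-coding genes whose levels followed a regulator most closely over the 17 hearts, after removal of the group means, are given as a description, and all of them share their libraries. For *Esrra* they were *Idh3a*, a subunit of the citric acid cycle enzyme isocitrate dehydrogenase (r = 0.960), *Ecsit*, an assembly factor of complex I (0.955), and *Mtfp1*, a protein of mitochondrial fission (0.955). For *Esrrg* they were *Acad8* (0.952), an enzyme of valine breakdown, *Ndufaf1* (0.944), an assembly factor of complex I, and *Pptc7* (0.940), a mitochondrial phosphatase.

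For *Ppara* they were *Pde4dip* (0.896), *Flvcr2* (0.884) and *Fbxo10* (0.880). For *Ppargc1a* they were *Rbm24* (0.831), an RNA-binding protein that directs splicing in muscle, *Ddx59* (0.822) and *Cdadc1* (0.806). Over the 15 hearts without hMut 6 and 9 the coefficients of these 12 pairs lay between 0.782 and 0.870.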
